A study of Rattus norvegicus with 8 samples.

Results

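The miRNAs of the imprinted Dlk1-Dio3 region were examined in the prostatic urethra of rats, in tissue healing from a laser wound and in tissue after a sham operation. Members were taken by name, detected or not, as every rat miRNA on the array with 1 of 38 family numbers known from this region. This gave 78 of the 758 rat miRNAs on the array, and all 38 numbers were present. The choice was made with earlier results of these data known.

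The Dlk1-Dio3 region is an imprinted domain, in which a gene is read from the copy of a single parent. Its protein-coding genes, among them Dlk1, Rtl1 and Dio3, are read from the paternal copy, whereas the long non-coding RNA Meg3 and a large set of miRNAs are read from the maternal copy. Long maternal transcripts are cut into many hairpins, and each hairpin can give a 5p and a 3p miRNA. The miRNAs are known for high levels in brain, placenta and growing muscle, and for low levels in most adult epithelia.

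Male SD rats were 10 to 12 months old and formed 2 groups of 4 animals, each giving 1 array, and no other treatment or allele was named for either group. TULP stands for transurethral laser prostatectomy, which was simulated by vaporizing the lining of this part of the urethra with a thulium laser. The sham group was opened surgically without laser treatment, and tissue of both groups was harvested on day 5, in the middle of wound repair. The titles and treatment fields of the TULP samples name trauma tissue while their descriptions name sham surgery before harvest, so each direction below rests on the titles.

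All 8 arrays lay on 1 slide, in 2 slide rows, and 0 spots were saturated. The slide row that held sham replicate 4 also held TULP replicates 1, 2 and 3. Between 136 and 156 of all miRNAs were detected per array. The log2 sum of their signal was lower in the TULP group by 0.64 (14.75 in sham and 14.12 in TULP, two-sided exact permutation test, p = 0.0286, which is the lowest p possible with 4 arrays per group). Such a difference is removed by the normalization, so normalized levels compare a miRNA with the rest of its array. The tissue carried epithelial miRNAs, of which 8 of 14 on the list were detected, but 14 of 15 neural miRNAs, with both arms of miR-124 and miR-9a among them, were detected on no array.

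Of the 78 cluster miRNAs, 13 were detected on at least 1 array (16.7%), against 185 of all 758 (24.4%). The mature sequences of 12 of the 13 are printed here from RefSeq (GRCr8), 5′ to 3′, because they show which members gave signal and which near relatives their probes could bind. Capitals mark the seed, bases 2 to 8, with which a miRNA pairs to its targets.
miR-127-3p: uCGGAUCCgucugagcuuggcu
miR-434-3p: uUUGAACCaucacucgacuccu
miR-379-5p: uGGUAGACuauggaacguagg
miR-411-3p: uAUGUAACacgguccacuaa
miR-299a-5p: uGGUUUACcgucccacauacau
miR-494-3p: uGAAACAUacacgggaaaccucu
miR-300-3p: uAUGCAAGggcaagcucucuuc
miR-381-3p: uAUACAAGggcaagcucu
miR-382-5p: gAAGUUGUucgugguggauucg
miR-154-5p: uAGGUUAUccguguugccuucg
miR-369-5p: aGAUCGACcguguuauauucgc
miR-409a-3p: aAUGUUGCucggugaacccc

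The 12 seeds all differed from each other. Over the 76 members with a RefSeq mature sequence there were 70 seeds. The largest group with 1 seed was miR-410-5p, miR-494-5p and miR-496-5p, with GGUUGUC, and none of them was detected. miR-299a-5p shared its seed with miR-299b-5p, and miR-381-3p with miR-539-3p. Both of these partners were undetected. Median GC content was 46.55% in the detected and 47.7% in the undetected members.

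Close relatives limit how far a probe signal can be given to a single miRNA. The following relatives, which were undetected on all 8 arrays, are printed for comparison with miR-299a-5p and miR-411-3p above.
miR-299b-5p: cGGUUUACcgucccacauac
miR-379-3p: cUAUGUAAcaugguccacuaac
Aligned without gaps, miR-299a-5p matched miR-299b-5p at 19 bases and miR-411-3p matched miR-379-3p at 19. miR-154-5p matched miR-494-5p, which was undetected, at 18 bases of 22. miR-381-3p, at 18 bases the shortest of the detected members, matched miR-300-3p at 17. Signals of these pairs may not be fully separate, and this was not tested. For miR-494-3p the closest mature miRNA on the array was miR-154-3p, with 16 matching bases of 23, and it was undetected.

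Probe positions in the files place 67 of the 78 members on rat chromosome 6 of the rn4 build, at 134141381 to 134425147, a span of 283.8 kb. The files give no position for the other 11, but all 42 miRNA genes that were matched in RefSeq lie on chromosome 6 of GRCr8. The mapped members form 2 stretches, 178.0 kb apart. The first holds 18 members, of which 3 were detected, and the last holds 49, of which 8 were detected. miR-300-3p and miR-369-5p, also detected, have no rn4 position. The detected members were therefore spread over both stretches and stood between undetected ones.

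**Figure D1:**
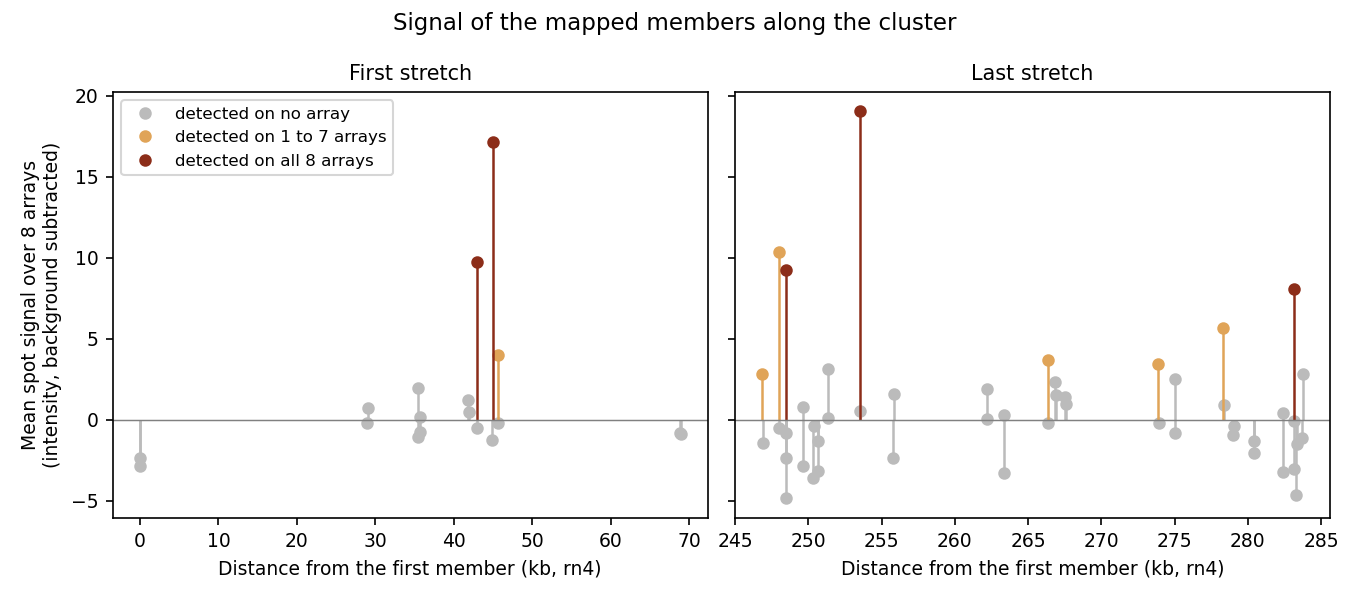
Mean background-subtracted spot signal over the 8 arrays (intensity, vertical axis) of the 67 mapped members, by distance in kb from the first member on rn4; the panels show the 2 stretches at different horizontal scales. Colours mark members detected on no array, on 1 to 7 arrays and on all 8; the members detected on all 8 lie at 43.0, 44.9, 248.5, 253.5 and 283.2 kb, among members near 0.

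The hairpins of miR-127, miR-136, miR-431, miR-433 and miR-434 overlap Rtl1, a gene derived from a retrotransposon, whose transcript miR-127 and miR-434 are known to cut. On rn4 the probes of miR-127-3p lie at chromosome 6, 134184373 to 134184389, and those of miR-434-3p at 134186314 to 134186330. The hairpins of miR-379, miR-411, miR-299a and miR-494 overlap 1 long non-coding RNA gene, LOC102555254, which 14 member hairpins overlap in all. Those of miR-154, miR-300, miR-369, miR-381, miR-382 and miR-409a overlap another, LOC120103623, which 17 overlap. Both counts ignore strand. They include miR-299b (LOC102555254) and miR-409b (LOC120103623), whose hairpins lie on the minus strand while both genes lie on the plus strand. miR-770 lies in Meg3 and was undetected in both arms. On rn4 the probes of miR-494-3p lie at 134394925 to 134394938 of chromosome 6, and those of miR-409a-3p at 134424557 to 134424569.

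Of the 42 matched hairpins, 40 lie on the plus strand, as does Meg3. The other 2, those of miR-299b and miR-409b, lie on the minus strand, opposite miR-299a and miR-409a, and neither miR-299b nor miR-409b was detected. For 36 hairpins both arms were on the array. In 23 neither arm was detected, in 13 a single arm was, and in 0 were both. The detected arm was 5p for 6 miRNAs and 3p for 7.

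Across arrays, 5 members were detected on all 8, namely miR-127-3p, miR-299a-5p, miR-409a-3p, miR-434-3p and miR-494-3p. miR-411-3p was detected on 7 arrays (3 sham, 4 TULP), miR-300-3p on 6 (3 and 3), miR-154-5p on 5 (3 and 2) and miR-379-5p on 4 (2 and 2). miR-136-5p, miR-369-5p, miR-381-3p and miR-382-5p were each detected on 1 sham array. For miR-369-5p it was sham replicate 4, and for the others sham replicate 1. No member was detected on the arrays of a single group only, apart from these 4.

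The number of members detected was 12, 5, 8 and 10 on sham replicates 1 to 4 and 8, 9, 6 and 8 on TULP replicates 1 to 4. The mean was 8.75 in the sham group and 7.75 in the TULP group, and the groups overlapped, with the lowest and the highest count both among the sham arrays. Members took 0.681%, 0.182%, 0.181% and 0.331% of the detected signal in sham and 0.543%, 0.565%, 0.255% and 0.362% in TULP. These shares overlapped too, and the spread within each group was larger than the distance between the group means of 0.344% and 0.431%.

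The 65 undetected members lay near the background. Their median background-subtracted spot signal, an intensity averaged over 16 spots per miRNA, was -0.92 to 0.25 per array, against a mean of 2.32 to 3.22 and an SD of 1.95 to 2.45 for the single spots of the negative controls. Of the undetected members, the highest mean was that of miR-329-3p, at 3.04 ± 0.74 in sham and 3.18 ± 0.45 in TULP (SD, n = 4 each). The lowest was that of miR-299a-3p, at -4.84 ± 0.37 and -4.90 ± 0.65 (SD, n = 4 each). For neither did the groups separate, and a low signal here does not show that a miRNA was absent.

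The undetected members were both arms of miR-299b, miR-323, miR-329, miR-337, miR-370, miR-376a, miR-376b, miR-376c, miR-377, miR-380, miR-410, miR-412, miR-433, miR-485, miR-487b, miR-493, miR-496, miR-539, miR-540, miR-541, miR-543, miR-758 and miR-770. With them were miR-341, miR-409b, miR-431, miR-495, miR-665 and miR-668, for which the array holds a single form. For the other hairpins it was the partner arm of a detected miRNA, namely miR-127-5p, miR-136-3p, miR-154-3p, miR-299a-3p, miR-300-5p, miR-369-3p, miR-379-3p, miR-381-5p, miR-382-3p, miR-409a-5p, miR-411-5p, miR-434-5p and miR-494-5p. Thus miR-376a, miR-376b and miR-376c, whose hairpins are close relatives, gave no detected arm at all.

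Spot signals before normalization showed how the detected members varied, and values are listed here and below in the order of replicates 1 to 4. miR-434-3p had 28.9, 11.4, 13.3 and 31.1 in sham and 18.1, 16.1, 9.69 and 8.46 in TULP. miR-127-3p had 17.3, 6.21, 7.17 and 14.1 in sham and 10.3, 10.75, 5.17 and 7.03 in TULP. Both of these Rtl1-overlapping miRNAs were high on sham replicates 1 and 4 and on TULP replicates 1 and 2, and their groups overlapped.

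miR-299a-5p had 15.3, 5.32, 6.37 and 16.0 in sham and 9.90, 9.59, 5.32 and 6.10 in TULP, high on the same arrays. miR-409a-3p, a miRNA studied in the epithelial to mesenchymal change of prostate cancer cells, varied less, with 8.37, 8.34, 6.27 and 7.70 in sham and 9.13, 8.54, 7.63 and 8.51 in TULP. miR-494-3p had 11.9, 18.6, 13.1 and 19.9 in sham and 29.9, 25.0, 18.1 and 15.8 in TULP. It was highest on TULP replicates 1 and 2, but TULP replicates 3 and 4 lay below sham replicates 2 and 4. Before normalization the groups overlapped for all 78 members. Of all 758 miRNAs, 17 had separate groups with TULP higher and 57 with TULP lower.

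The other detected members were given by their range over the 8 arrays. The spot signal of miR-411-3p ran from 2.13 to 20.9, that of miR-300-3p from 1.62 to 9.46 and that of miR-154-5p from 3.81 to 7.50. miR-379-5p, the first miRNA of the last stretch, ran from 0.48 to 6.15. miR-369-5p (3.25 to 6.02), miR-136-5p (3.09 to 6.08), miR-381-3p (-0.08 to 8.20) and miR-382-5p (0.59 to 5.73) completed the set, and in each the groups overlapped.

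**Figure D2:**
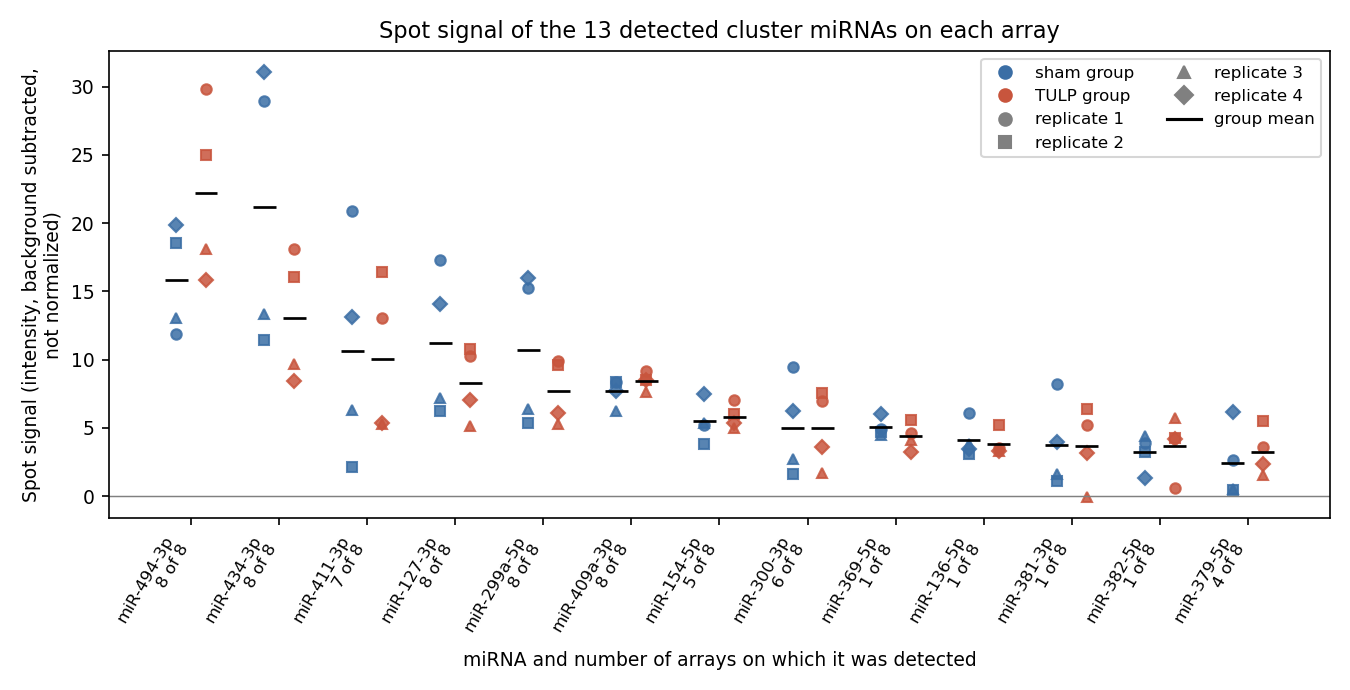
Background-subtracted spot signal (intensity, not normalized, vertical axis) of the 13 detected cluster miRNAs on each of the 8 arrays, with sham arrays left and TULP arrays right of each name, symbols for replicates and bars for group means. Groups overlapped for every miRNA shown, and miR-434-3p, for example, ran from 11.4 to 31.1 in sham and from 8.46 to 18.1 in TULP.

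For the test between groups, the signal of each miRNA was quantile normalized between arrays and values under 1.94 (0.96 in log2) were set to that floor. The 151 miRNAs detected on at least 4 arrays were fitted with limma, and p-values were adjusted over all 151 by Benjamini-Hochberg. Only 9 of the 78 members passed this filter on low signal. A miRNA was called when its adjusted p was under 0.05 and it changed more than 2-fold.

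Of the 9 tested members, 0 were called by limma, against 9.27% of all tested miRNAs. By the methods' t-test on the same values and thresholds, 0 were called as well. At the adjusted p alone 1 of the 9 passed, miR-494-3p, against 30.5% of all tested miRNAs. At an unadjusted p under 0.05 the count was 1 of 9 as well, against 43% of all. The groups did not overlap for 0 of 9 members, against 29.1% of all. The median difference, TULP minus sham on the log2 scale, was 0.17 over the 9 members, of which 6 had a value above 0, and -0.02 over all 151. With 9 members, these shares are descriptions.

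miR-494-3p had normalized log2 signals of 3.66, 4.24, 3.62 and 4.10 in sham and 5.09, 4.78, 4.52 and 4.20 in TULP. Of the 4 TULP arrays, 3 lay above every sham array, and TULP replicate 4 lay just below sham replicate 2. The mean was 3.90 ± 0.31 in sham and 4.65 ± 0.37 in TULP (SD, n = 4 each), so TULP exceeded sham by 0.75 (SE 0.23, limma adjusted p = 0.0443). As a fold this was 1.68, with a 95% interval of 1.15 to 2.44.

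miR-494-3p changed less than 2-fold and passed the adjusted p narrowly. Over 22 alternatives it passed in 7, 1 of which used an unadjusted p, and on the stored totals of the files its difference turned to -0.44 (limma adjusted p = 0.167). With slide row as a block the difference was 0.53 (limma adjusted p = 0.158), and within the rows it was 0.69 (1 sham, 3 TULP arrays) and 0.37 (3 sham, 1 TULP array). Scaled to the labelling spike-ins it was 0.13 (limma adjusted p = 0.644), where the median of all tested miRNAs was -0.78. When a single array was left out, it passed only without sham replicate 2 (limma adjusted p = 0.0439) or TULP replicate 4 (limma adjusted p = 0.0292). The limma adjusted p rose highest, to 0.107, without sham replicate 3.

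A single probe of 15 bases carried the signal of miR-494-3p. Its total signal exceeded 3 times its error on 8 of 8 arrays, and the second probe did so on 0. The mean total of that probe before normalization was 17.8 in sham and 22.9 in TULP, a ratio of 1.28. A single probe also carried miR-127-3p, miR-154-5p, miR-300-3p, miR-379-5p and miR-411-3p. For miR-409a-3p 3 probes contributed, on 7, 6 and 2 arrays, so that its summed signal rests on differing numbers of probes. The same holds for miR-434-3p and miR-299a-5p, whose second probe contributed on 3 arrays and on 1.

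Beside this result, the mean levels of the striated muscle and stromal fibroblast lists were separate between the groups, the first narrowly. Those of the other cell type lists overlapped. Of the leukocyte miRNAs, 4 of 8 were tested and 2 were called, miR-223-3p and miR-142-3p, both higher in TULP, against 9.27% called of all tested miRNAs. Groups were separate, in either direction, for 29.1% of all tested miRNAs. Among them was miR-150-5p, lower on every TULP array than on every sham array. Its difference of -0.59 did not pass (limma adjusted p = 0.0737). The mean level of the list was 2.53 to 3.31 on the sham arrays and 3.28 to 4.33 on the TULP arrays. Of the striated muscle miRNAs, 6 of 15 were tested and 0 were called. At the adjusted p alone 5 were lower, against 30.5% of all tested miRNAs past it in either direction. Their mean level was 8.56 to 9.02 on sham and 7.81 to 8.55 on TULP arrays. The cardiac and slow-muscle miRNAs miR-208a, miR-208b and miR-499 were undetected.

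Of the stromal fibroblast miRNAs, 3 of 4 were tested and 0 were called. At the adjusted p alone 2 were higher, against 30.5% of all tested miRNAs past it in either direction. Their mean level was 5.86 to 6.22 on sham and 6.46 to 6.71 on TULP arrays. None of the tested epithelial (7), smooth muscle (2), neural (1) or endothelial (1) miRNAs passed. Their mean levels were 4.97 to 5.36 and 4.22 to 5.67 for epithelial, 6.88 to 7.49 and 6.15 to 7.71 for smooth muscle, 2.66 to 4.16 and 3.16 to 3.62 for neural, and 6.85 to 7.25 and 6.85 to 7.10 for endothelial, sham before TULP. The part of these cell types in the difference of miR-494-3p was not tested. In whole tissue, fewer cells of a type and less RNA per cell cannot be told apart.

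The other 8 tested members did not pass. miR-411-3p had normalized log2 means of 2.84 ± 1.44 in sham and 3.61 ± 0.74 in TULP (SD, n = 4 each), and the difference was 0.77 (SE 0.73, adjusted p = 0.514 by limma). miR-409a-3p had 2.97, 1.96, 1.37 and 2.28 in sham and 2.97, 3.01, 1.80 and 3.36 in TULP, and the difference was 0.64 (SE 0.43, adjusted p = 0.344 by limma). Both estimates were close to that of miR-494-3p, but on the normalized signal their replicates were spread much more widely. Without sham replicate 2, on which miR-411-3p was undetected, its difference was 0.14. On spot signal before normalization miR-409a-3p varied less than miR-494-3p. It had 7.67 ± 0.98 in sham and 8.46 ± 0.62 in TULP, and miR-494-3p had 15.8 ± 4.0 and 22.2 ± 6.4 (SD, n = 4 each).

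miR-434-3p had 5.09, 3.12, 3.27 and 4.48 in sham and 4.69, 3.91, 3.04 and 3.19 in TULP, and the difference was -0.28 (SE 0.55, adjusted p = 0.813 by limma). miR-127-3p had 3.91, 2.40, 2.60 and 3.16 in sham and 3.44, 3.82, 2.06 and 2.97 in TULP, and the difference was 0.06 (SE 0.46, adjusted p = 0.962 by limma). The groups of these Rtl1-overlapping miRNAs covered nearly the same range. miR-299a-5p had 3.86, 2.33, 2.18 and 3.36 in sham and 3.50, 3.09, 2.28 and 2.56 in TULP, and the difference was -0.07 (SE 0.44, adjusted p = 0.953 by limma).

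miR-154-5p, miR-300-3p and miR-379-5p lay at the floor on at least 2 arrays each, and miR-411-3p on sham replicate 2. miR-379-5p was at the floor on 3 sham and 2 TULP arrays, and its difference was 0.35 (limma adjusted p = 0.710). The difference of miR-300-3p was 0.17 (limma adjusted p = 0.911), and that of miR-154-5p, a miRNA linked to fibrosis of the lung, was -0.19 (limma adjusted p = 0.844). With no floor the differences were -1.26 for miR-154-5p, 0.45 for miR-379-5p, 0.17 for miR-300-3p and 1.84 for miR-411-3p, and none passed. The 95% intervals of all 8 included 0, and each also reached past 2-fold in at least 1 direction, as for miR-411-3p, from -0.93 to 2.48, and miR-434-3p, from -1.57 to 1.01. These arrays do not show that the 8 miRNAs were alike in both groups.

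**Figure D3:**
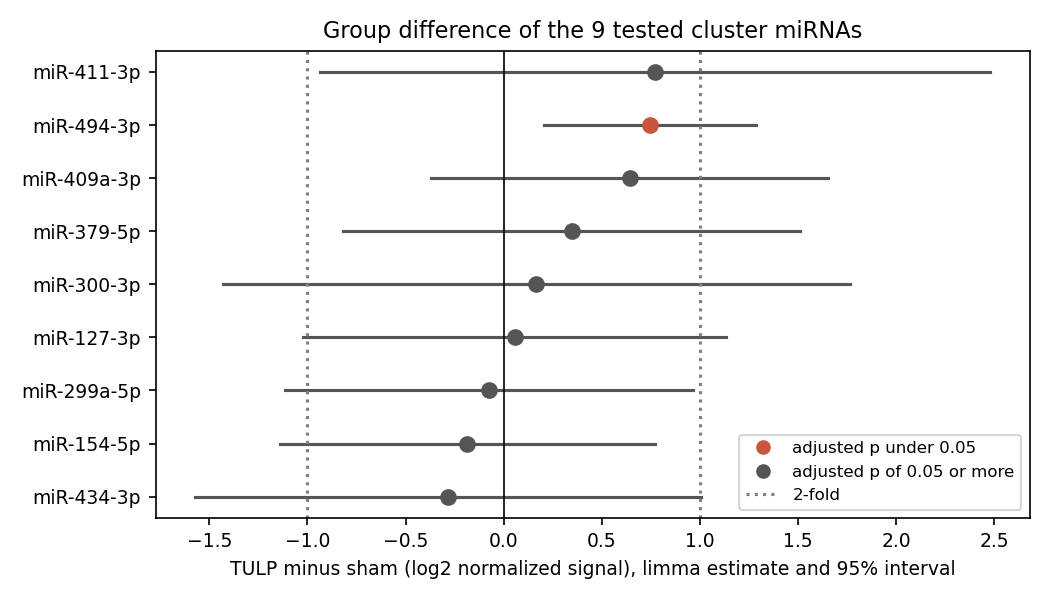
Difference between the groups, TULP minus sham in log2 normalized signal (horizontal axis), for the 9 tested cluster miRNAs, as limma estimates with 95% intervals; dotted lines mark 2-fold. The interval of miR-494-3p runs from 0.21 to 1.29 and lies above 0, and each of the other 8 intervals covers 0.

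A second fit kept all 78 members, detected or not, on the spot signal of all 758 miRNAs. Of the 78, 0 passed the limma adjusted p, against 3.56% of all miRNAs, and with the 2-fold threshold it was again 0, against 0.264%. Of the 78, 3 had an unadjusted p under 0.05, against 14.1% of all. These 3 were miR-494-3p, miR-370-5p and miR-487b-5p, and the last 2, which were undetected, are named because their count is so small. miR-494-3p differed by 0.19 (SE 0.04, limma adjusted p = 0.0584), a size that the offset of 50 added in this fit compresses. Here its TULP arrays, at 6.51, 6.46, 6.44 and 6.30, all lay above the sham arrays, at 6.21, 6.27, 6.21 and 6.25. It was the single member of 78 with separate groups, against 9.89% of all miRNAs. Without TULP replicate 4, 1 member passed the adjusted p.

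On the normalized signal, most of the 9 tested members varied widely among animals of the same group. The median SD within groups was 0.72 (log2) for the 9 tested members. For the 66 other tested miRNAs below the median level it was 0.50, and for the 76 at or above it 0.21. miR-411-3p had an SD of 1.14, the sixth of 151 in rank, and miR-300-3p one of 1.07. miR-494-3p, with 0.35, varied least of the 9.

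Much of this variation was shared. All 8 tested members other than miR-494-3p lay at or below their group mean on sham replicates 2 and 3 and on TULP replicate 3, and TULP replicate 3 was the lowest of its group for 8 of 8, ties at the floor included. On sham replicate 4 and TULP replicate 2, 8 of 8 lay above their group mean, and on sham replicate 1 and TULP replicate 1, 7 of 8 did. On both the exception was miR-379-5p, which lay at the floor there. TULP replicate 4 lay between, with 2 of 8 above.

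The median deviation of these 8 from the group mean was 0.91, -0.68, -0.38 and 0.41 on sham replicates 1 to 4 and 0.63, 0.42, -0.77 and -0.27 on TULP replicates 1 to 4. The same median over all tested miRNAs stayed between -0.06 and 0.05, which quantile normalization holds near 0 on every array. Of the 4 arrays with a median above 0, sham replicate 4 and TULP replicates 1 and 2 lay in slide row 1 and sham replicate 1 in slide row 2. The part of the slide row in this variation was not tested.

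Between the 8 members other than miR-494-3p, deviations from the group mean correlated with a median Pearson r of 0.80 and a median Spearman rho of 0.76. All 28 pairs of these 8 were above 0. miR-494-3p was left out after its values were seen, and 6 of its 8 pairs with the others were above 0. Of the 28 pairs, the closest was miR-299a-5p and miR-434-3p, from different stretches of the cluster, with r = 0.98. The loosest was miR-154-5p and miR-379-5p, with r = 0.11, both at the floor on several arrays. On spot signal the r of this pair was 0.86. Over all pairs of tested miRNAs the median r was 0.02. Each r is a description over 8 arrays that share their normalization, and miRNAs of the same arrays are not independent.

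The median r was 0.82 with no normalization (0.29 over all tested miRNAs), 0.80 when scaled to the labelling spike-ins (0.25 over all) and 0.78 on the spot signal (0.01 over all). On the normalized signal, without the 2 arrays whose mean deviation of the 8 lay farthest from the median array, sham replicate 2 and TULP replicate 3, the median r was 0.66 and 24 of 28 pairs stayed above 0. These alternatives were added after the data were seen.

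The deviations of miR-494-3p correlated with those of the other 8 members at a median r of 0.08, from -0.11 to 0.38. On sham replicate 2, where the others were low, it lay 0.34 above its group mean, and on sham replicate 1, where they were high, it lay 0.25 below (-0.25). The difference between the medians of 0.80 and 0.08 was not tested, since miR-494-3p was singled out after its values were seen. On the normalized signal miR-379-5p, at the floor on 5 arrays, was also only loosely tied to the other 7, with r from 0.11 to 0.42. On spot signal, which has no such floor, its r with the same 7 ran from 0.55 to 0.91. On spot signal, miR-382-5p, detected on 1 array, ran against each of the other 12 detected members, with r from -0.78 to -0.12. Of the cell type lists, the deviations of the leukocyte list ran most against those of the 8 members (r = -0.62 over 8 arrays), and its part in them was not tested.

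**Figure D4:**
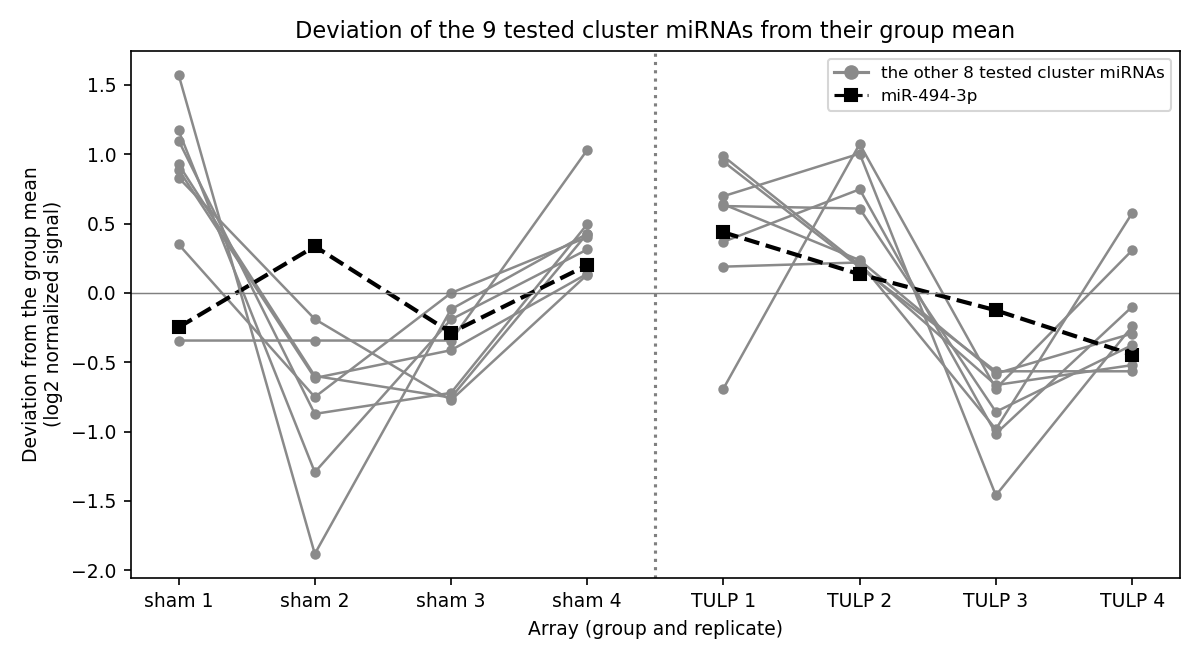
Deviation of each tested cluster miRNA from its group mean (log2 normalized signal, vertical axis) on each of the 8 arrays, with miR-494-3p in black and the other 8 in grey; lines join values of 1 miRNA within a group and carry no order. Most grey miRNAs rise and fall together, with medians of 0.91 on sham 1 and -0.77 on TULP 3, while miR-494-3p stays between -0.45 and 0.44.

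miRNAs outside the cluster that followed the 8 members most closely were let-7g-5p (r = 0.76), miR-149-5p (0.70) and let-7a-5p (0.69). Each r is with the deviation of the mean level of the 8 from its group mean, over 8 arrays. Those that ran most against them were miR-19b-3p (-0.80), the leukocyte miRNA miR-142-3p (-0.79), miR-338-3p (-0.77) and miR-99a-5p (-0.76).

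Further miRNAs of the same region, known from mouse or human and outside the 38 numbers, were counted in the same fit. Of 12 such rows on the array, 10 had a RefSeq position, and all 10 lay on chromosome 6 of GRCr8. A single one of the 12, miR-1188-3p, was detected and tested. It had normalized log2 signals of 3.39, 2.97, 0.96 and 2.86 in sham and 3.56, 3.50, 3.44 and 3.71 in TULP. All TULP arrays lay above all sham arrays, of which sham replicate 3 was at the floor. Groups were separate, in either direction, for 29.1% of all tested miRNAs. The difference of miR-1188-3p, 1.01 (SE 0.49, limma adjusted p = 0.169), did not pass. Within the rn4 interval of the members lay 10 further miRNAs, both arms of miR-134, miR-544, miR-666, miR-667 and miR-673, and 0 of them were detected. The miR-666, miR-667 and miR-673 arms are also among the 12.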

How the data were processed

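Total RNA of 8 samples was hybridized with 1 dye to a rat miRNA array, and images were read by the authors with Agilent Feature Extraction 10.7.1.1. Deposited spot values are linear intensity, from which the software had taken the background. A log2 table that the authors had quantile normalized served as an alternative. Signal per miRNA was summed anew over probes with a total above 3 times its error, and was 0.1 where no probe had one. Detection by this rule and in the files differed in 0 cases, but 352 of 1191 stored totals exceeded the new sum. The floor was taken as the lowest normalized signal among detected miRNAs on each array, and then its median. Fits used limma 3.58.1 in R 4.3.3 with group as the single term, and were tested on simulated data. The fit of all miRNAs used normexp with an offset of 50 on spot means, outlier spots left out. Named with values were members detected on at least 1 array. Members and lists were chosen with earlier results of these data known. The number of arrays limits the precision, and p-values measure the spread between animals of 1 slide. Sequences and gene overlaps came from RefSeq (GRCr8), and 76 of 78 members were matched by name.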

Additional observations from a re-analysis of the deposited data

Results flagged for a closer look

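Of 48 groups of 4 arrays examined, 2 held an array past the critical value of Dixon's test. Chance gives about 5%, or 2.4, but this rate does not hold for groups with values tied at the floor. The normalized log2 signal of miR-379-5p was 2.33 on sham replicate 4, where the other sham arrays lay at the floor of 0.96. With the others tied, the test flags any higher value, so this flag was fixed by the floor. The spot signals of miR-379-5p on sham replicates 1 to 4, at 2.67, 0.48, 0.53 and 6.15, were not flagged. The spot signal of miR-136-5p was 5.20 on TULP replicate 2, against 3.28 to 3.53 on the other TULP arrays, although it was detected on no TULP array.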

How the results depend on the processing

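Across all 22 alternatives, leaving out an array included, 0 cluster miRNAs were called. The 1 member past the adjusted p became 0 with no normalization, on labelling spike-ins, on stored totals, with detection on at least 1 array, with no floor, with the deposited values, with the adjusted methods' t-test, with slide row as a block and with the replicate block, and it was 0 to 1 when an array was left out. Replicate numbers did not pair the samples (correlations of deviations 0.13, -0.10, 0.27 and -0.10), and the replicate block gave miR-494-3p a limma adjusted p of 0.0922. The count called over all miRNAs was 34 with no normalization (5 higher, 29 lower), 53 on spike-ins (5 higher, 48 lower), 17 with control features kept (8 higher, 9 lower), 2 under normexp and 8 with detection on all 8 arrays, and 9 to 21 when an array was left out, against 14 (8 higher, 6 lower). On spot signal, 27 passed the adjusted p, 0 with scaling to the 75th percentile, 15 with no normalization and 15 to 45 when an array was left out, where 0 to 1 were members.

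Differences turned sign under some settings. For miR-127-3p they were -0.24 with no normalization, -0.47 on spike-ins, -0.048 with control features kept and on the deposited table, -0.22 on stored totals, -0.021 under normexp and -0.022 with slide row. For miR-300-3p they were -0.037 (no normalization), -0.22 (spike-ins), -0.51 (stored totals), -0.0046 (normexp) and -0.018 (slide row). For miR-299a-5p they were 0.10 (75th percentile), 0.069 (control features kept, and deposited table) and 0.44 (stored totals). Others were miR-379-5p at -0.021 (spike-ins) and -0.30 (stored totals), miR-409a-3p at -0.017 (spike-ins), miR-434-3p at 0.0048 (stored totals), miR-154-5p at 0.0054 (normexp) and miR-494-3p, the member that passed, at -0.44 (stored totals). miR-411-3p kept its sign but moved from 0.77 to 1.84 with no floor and on the deposited table, to 1.56 on stored totals, and from 0.14 to 1.33 when an array was left out. miR-409a-3p moved from 0.64 to 2.01 on stored totals and from 0.38 to 0.98 when an array was left out. miR-154-5p moved from -0.19 to -1.26 with no floor and -1.42 on stored totals. Calling detection by 3 SD of the negative controls left the group difference in detected members at -1. When an array was left out, miR-127-3p ran from -0.20 to 0.40, miR-300-3p from -0.24 to 0.65, miR-299a-5p from -0.33 to 0.24, miR-154-5p from -0.55 to 0.021 and miR-434-3p from -0.61 to 0.080. The cause was not tested. A fit with no detection filter, and one on background-subtracted spots with a floor of 1, could not be fitted, as most miRNAs then had no spread. Signals of most members lay near the background, which limits what these arrays can show.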
